A study of Mus musculus with 375 samples.

Results

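The genes of cytosolic translation initiation and elongation were followed in single heart muscle cells from mice with pressure-overloaded hearts, a study of the part that T cells, above all the CD8+ ones, play in the cardiomyocyte response. The members were all genes of the count table whose symbol begins with Eif1 to Eif6, Eef1 or Eef2, with pseudogene entries left out. This rule uses names only and gave 71 of 21872 genes. All cells were rod-shaped cardiomyocytes picked with a pipette from the left ventricle of mice labelled C57BL/6N, 2 weeks after TAC, surgical banding of the aorta that raises the load on the left ventricle, and per the study's methods the mice were young males. The CD8-depleted group (136 cells) came from mice that received an anti-CD8 antibody from the day of TAC onwards, the CD3e-/- group (111 cells) from mice born without CD3 epsilon and so without mature T cells, and the WT group (128 cells) from wild-type mice. Sham-operated hearts were not analysed here. Each group holds 2 numbered sets of cells (n = 2), and counts were summed over the cells of a set. The methods speak of cells from a pair of mice but the labels do not say what a set number stands for, so p-values may measure only the technical spread between sets.

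Of 375 cells, 320 were used; the others had under 3000 detected genes or were an identical pair. The CD8-depleted sets kept 62 and 49 cells with 7643239 and 5469742 nuclear counts, the CD3e-/- sets 11 and 77 cells with 604652 and 24057660, and the WT sets 59 and 62 cells with 23691021 and 20540110. CD3e-/- set 1 stood apart: across genes, its correlation with each other set was between 0.616 and 0.654, while the other 5 sets correlated at 0.937 to 0.969. Olfactory receptor genes, which are silent in the heart, took 13206 CPM (counts per 1000000 nuclear counts) in that set and at most 222 CPM elsewhere. The summed level of 10 cardiomyocyte marker genes was 62661 CPM in it, against 138247 to 193795 CPM in the other sets. Per set, 6 measured T cell genes summed to at most 28.1 CPM, 8 leukocyte genes to at most 107 CPM and 8 endothelial genes to between 1021 and 2722 CPM. The 10 fibroblast genes summed to 100.1 and 355 CPM in CD8-depleted, 463 and 218 CPM in CD3e-/- and 112 and 25.3 CPM in WT sets. The 6 mural cell genes summed to 1075 CPM in CD3e-/- set 1 and to between 159 and 355 CPM in the other sets. All 5 sums were highest in CD3e-/- set 1, and their part in the results was not tested. The median share of mitochondrially encoded counts per cell was 94.0% and 90.8% in the CD8-depleted sets, 94.1% and 92.1% in the CD3e-/- sets and 77.3% and 85.3% in the WT sets, and the part of this difference in the results below was not tested. The targeted gene Cd3e was read 1 and 2 times in CD8-depleted, 4 and 37 times in CD3e-/- and 0 times in both WT sets. Heart muscle cells do not use this gene, so it does not check the labels. Each comparison is therefore given over all 6 sets and over the 5 sets without CD3e-/- set 1, where the spread of the single CD3e-/- set left is taken from the other groups.

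Translation starts when eIF2 brings the initiator tRNA to the small ribosomal subunit, which eIF3, eIF1 and eIF1A hold ready, while eIF4F, made of the cap-binding protein eIF4E, the scaffold eIF4G and the helicase eIF4A, recruits the mRNA. After the start codon is found, eIF5B joins the large subunit, and elongation is carried by eEF1A, which delivers aminoacyl-tRNAs, and eEF2, which moves the ribosome along. Cells tune protein synthesis through eIF2 and its exchange factor eIF2B and through the eIF4E-binding proteins, which hold eIF4E away from eIF4G until mTOR phosphorylates them. Adult heart and skeletal muscle, like neurons, use Eef1a2 besides the common isoform Eef1a1.

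No member passed an adjusted p of 0.05 in any comparison with edgeR. Eef1a2 had higher CPM in both CD8-depleted and both CD3e-/- sets than in both WT sets. So did Eif5b, Eif2s2, Eif4a1, Eif4g1, Eif3a and Eif3j2. For CD3e-/- cells this rests in part on plain CPM of set 1, with 11 cells and a TMM factor of 1.94. There a single cell gave over 25% of the counts of 63 members, and Eif3j2 had 1 count. With TMM over 6 sets, log2 fold changes in CD3e-/- against WT cells were −0.27 for Eif2s2, −0.42 for Eif4a1 and 0.12 for Eif4g1. They were 0.39 for Eef1a2, 0.55 for Eif5b, 0.47 for Eif3a and 0.37 for Eif3j2. Taken for each group alone, lying above both WT sets is not particular to the members. In CD8-depleted sets it held for 22.7% of members and 21% of all genes tested, and in CD3e-/- sets for 10.6% and 28%. The share of all genes for which it held in both groups at once was not computed. The 3 measured genes of the role of eIF4E inhibitors had lower CPM in both CD8-depleted sets than in both WT sets, as 19.8% of all genes tested did. Eif4e2, a cap-binding repressor placed with eIF4F, had higher CPM in both. As a share of nuclear counts, the members together took 0.676% and 0.641% in CD8-depleted sets, 0.553% and 0.685% in CD3e-/- sets, and 0.733% and 0.608% in WT sets, so the groups overlapped in the total. In the middle cell of each set, members summed to 6593 and 6085 CPM in CD8-depleted, 6339 and 6888 CPM in CD3e-/- and 7332 and 6128 CPM in WT sets.

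Of the 71 members, 66 passed the filter on low counts. Eif4e1b, which encodes an oocyte form of eIF4E, and Eif4ebp3 had 0 counts in every set, which allows up to 3 counts in each. Eef1akmt3 (14 counts), Eif4a3l1 (5 counts) and Eif4a3l2 (2 counts) were the others left out. Over the 5 sets, 54 members averaged 20 CPM or more and 24 averaged 100 CPM or more. Eif1 averaged 461 CPM, Eif4g2 403 CPM, Eef2 377 CPM and Eef1g 342 CPM over these sets. At 50000 nuclear counts per cell, 16 to 20 members were read in 90% or more of the cells of each of the 5 sets, and 8 to 11 in under 10% of them.

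**Figure D1:**
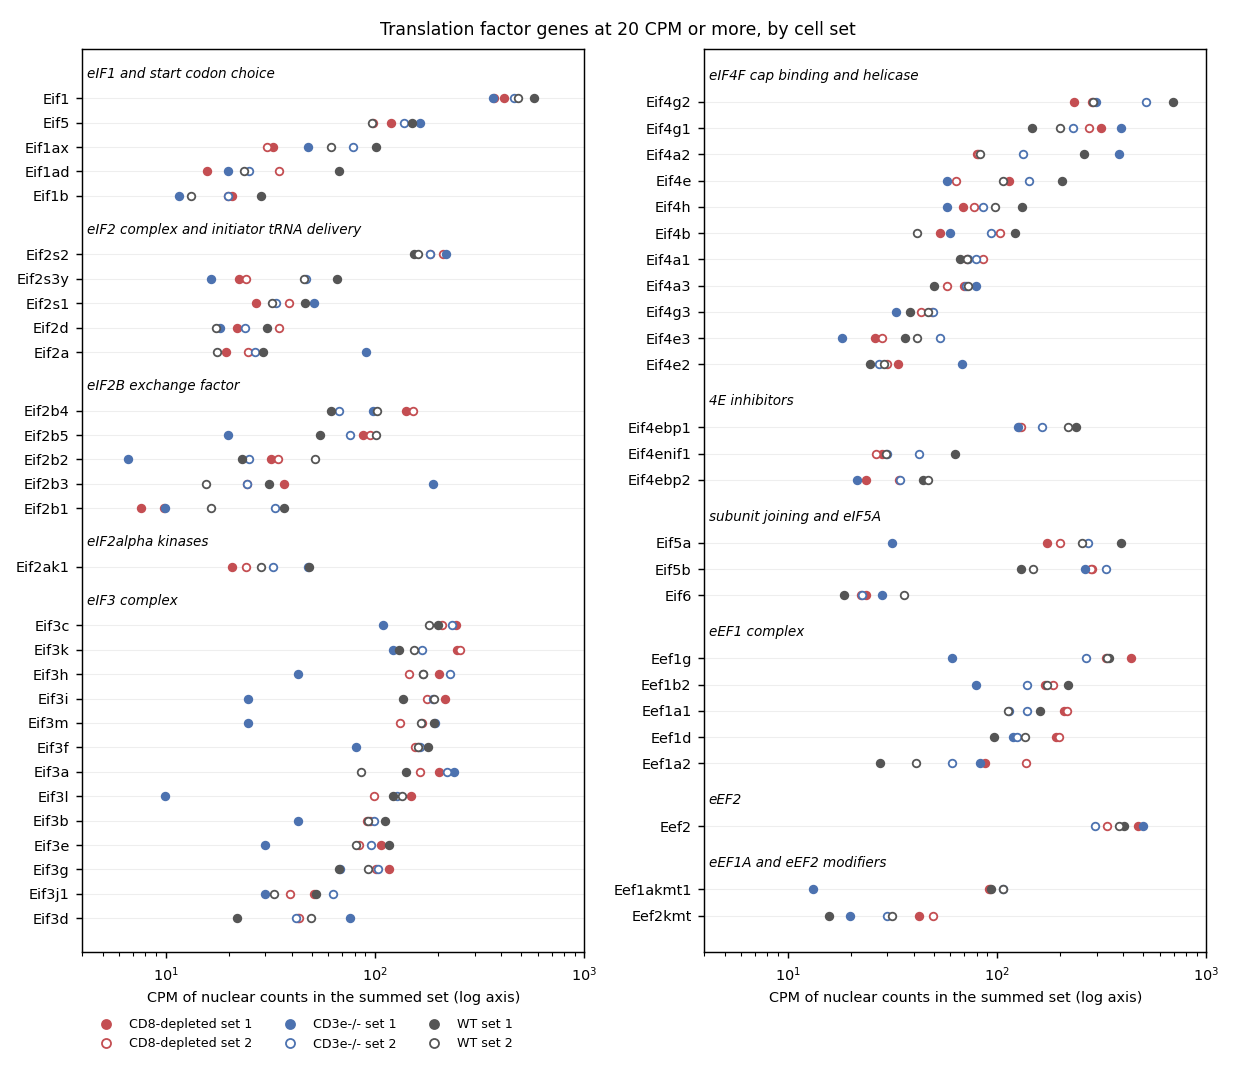
Level of the 54 members that averaged 20 CPM or more over 5 sets, as CPM of nuclear counts on a log axis, with 1 point for each of the 6 sets and the genes grouped by role. Eef1a2 and Eif5b lie to the right of both WT sets in all 4 other sets, and CD3e-/- set 1 lies far to the left for most eIF3 genes.

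In CD8-depleted against WT cells, 0 of 66 members passed the edgeR test over 6 sets, where 0.00% of all 12936 genes tested did, and 1 member, Eef1a2, had an unadjusted p under 0.05, as did 2.64% of all genes. DESeq2 (0.0618% of all genes) and limma-voom (0.00%) over 6 sets also passed 0 members and gave 1 member an unadjusted p under 0.05 each. Over 5 sets 0 members passed, beside 0.239% of 13374 genes. There, 10 members (15.2%) had an unadjusted p under 0.05, against 9.94% of all genes tested: 3 higher (background 4.61%) and 7 lower (background 5.34%). DESeq2 over 5 sets passed 1 member, Eef1a2, beside 1.17% of all genes tested. Both CD8-depleted sets lay above both WT sets in CPM for 15 of 66 members (22.7%), where 21% of all genes tested did, and below both for 17 (25.8%), where 19.8% did. Their median log2 fold change was −0.031 over 6 sets and −0.054 over 5, beside 0.018 and −0.02 for all genes tested.

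In CD3e-/- against WT cells, 0 members passed with edgeR over 6 sets (0.00% of all genes did) or over 5 sets (0.127% did). DESeq2 also passed 0 members, beside 4.80% of all genes over 6 sets and 0.0972% over 5 sets. An unadjusted p under 0.05 was found for 0 members over 6 sets (8.28% of all genes) and for 1, Eif5b, over 5 sets (2.46% of all genes). Both CD3e-/- sets lay above both WT sets for 7 of 66 members (10.6%), against 28% of all genes tested, and below both for 7, against 8.70%. Over 6 sets 12 members were higher and 54 lower, with a median log2 fold change of −0.58 beside 0.010 for all genes. With library sizes in place of TMM factors the members' median was −0.047 while that of all genes was 0.68, so the members lay 0.73 below all genes with library sizes and 0.59 below with TMM. This gap was smaller without set 1. There the members' median was −0.18, with 18 higher and 48 lower (−0.056 for all genes), and with library sizes as well it was 0.013 (0.13 for all genes), with 34 higher and 32 lower. The members thus lay 0.13 below all genes with TMM and 0.12 below with library sizes over 5 sets. With set 1 alone in the group, 31 members passed, beside 33.2% of all genes: 1 was higher (background 14.2%) and 30 were lower (background 18.9%). Both comparisons with WT share the WT sets.

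Between CD3e-/- and CD8-depleted cells, 0 members passed with edgeR over 6 sets (0.00% of all genes) or 5 sets (0.0150%), and 0 with DESeq2 (0.116% and 0.0748% of all genes). An unadjusted p under 0.05 was found for 0 members over 6 sets (3.90% of all genes) and for 3 over 5 sets (3.16%): Eif2b1 and Eif1ax higher and Eif2b4 lower in CD3e-/- cells. The CD3e-/- sets both lay above both CD8-depleted sets for 13 of 66 members (19.7%), against 26.4% of all genes, and below for 11 (16.7%), against 7.91%. The members' median log2 fold change was −0.48 over 6 sets and −0.14 over 5, beside 0.066 and −0.0098 for all genes. With library sizes in place of TMM it was 0.078 and 0.052 while all genes were at 0.73 and 0.16, so the members again lay below all genes, by 0.65 and 0.11. With set 1 as the only CD3e-/- set, 26 members passed, all lower, beside 25.1% of all genes (8.93% higher and 16.2% lower).

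**Figure D2:**
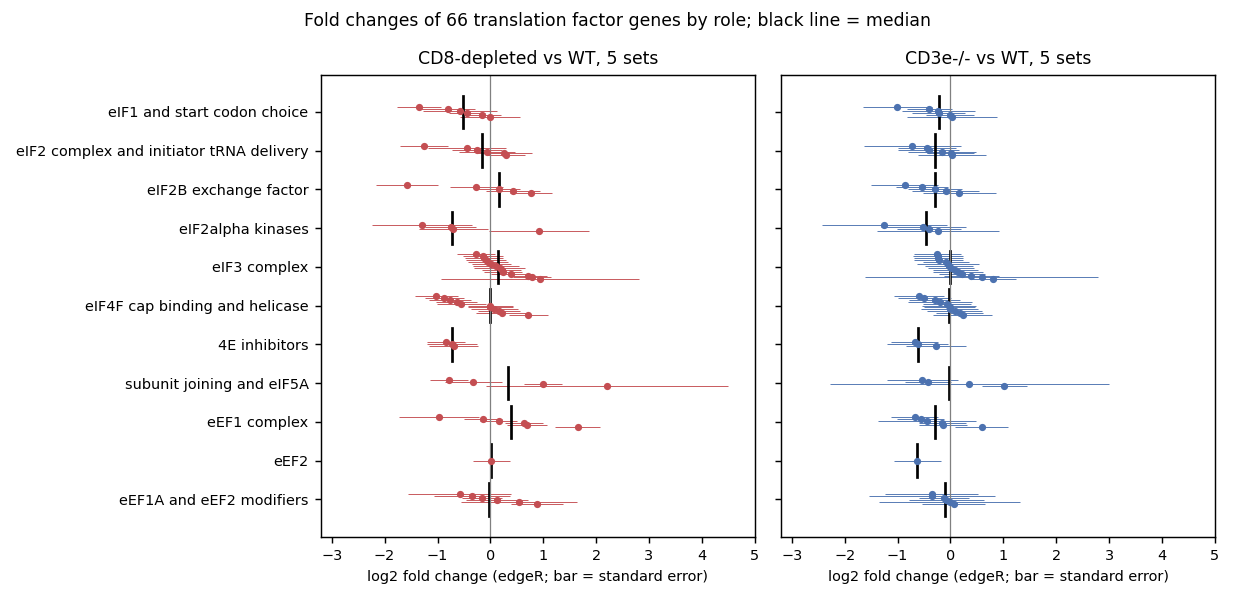
Log2 fold changes of the 66 tested members in CD8-depleted against WT cells (left, red) and CD3e-/- against WT cells (right, blue), from the edgeR fit of 5 sets, by role; each point is a gene, each thin bar its standard error, each black line the role's median. The 3 inhibitors of eIF4E lie left of 0 on both sides, and Eef1a2 at 1.65 is the rightmost eEF1 gene on the left side.

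Among the genes of start codon choice, Eif1, which guards the choice of the start codon, was the most abundant. Eif1 had 415 and 370 CPM in the CD8-depleted sets, 369 and 461 CPM in the CD3e-/- sets and 576 and 484 CPM in the WT sets. Both other groups lay below WT in every set, with no call in the test. Eif1ax, the X-linked gene of eIF1A, had 32.6 and 30.3 CPM in CD8-depleted, 48 and 78.5 CPM in CD3e-/- and 102 and 61.4 CPM in WT sets. CD8-depleted cells had the lowest levels of Eif1ax, with no overlap with either group. Its log2 fold change in CD8-depleted against WT cells was −1.35 (SE 0.42, unadjusted p = 0.0030, edgeR adjusted p = 0.203) over 5 sets and −1.33 (SE 0.72) over 6. Between CD3e-/- and CD8-depleted cells it was 1.13 (SE 0.49, edgeR adjusted p = 1.0) over 5 sets, and with only set 1 left in the CD3e-/- group it turned to −0.59. Eif1ad, which encodes an eIF1A-like protein, was highest in WT set 1. It had 15.7 and 34.7 CPM in CD8-depleted, 19.8 and 24.9 CPM in CD3e-/- and 67.5 and 23.8 CPM in WT sets. All 6 genes of this role had log2 fold changes below 0 in CD8-depleted against WT cells over 5 sets, with a median of −0.51 and with Eif1b closest to 0.

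In the eIF2 complex, the beta subunit gene Eif2s2 was the most abundant and had 184 and 212 CPM in the CD8-depleted sets, 220 and 183 CPM in the CD3e-/- sets and 153 and 162 CPM in the WT sets. The gamma subunit has an X-linked gene, Eif2s3x, and a Y-linked gene, Eif2s3y. Eif2s3y had 22.4 and 24.1 CPM in CD8-depleted, 16.5 and 46.7 CPM in CD3e-/- and 66 and 45.7 CPM in WT sets, and Eif2s3x 4.06 and 16.1 CPM, 21.5 and 9.31 CPM, and 15.3 and 11.6 CPM in the same sets. CD8-depleted and WT sets did not overlap for Eif2s3y, with a log2 fold change of −1.26 (SE 0.45, unadjusted p = 0.0092, edgeR adjusted p = 0.301) over 5 sets. The Y-linked gene gave 84.7% and 60% of the counts of this pair of genes in the CD8-depleted sets, 43.5% and 83.4% in the CD3e-/- sets and 81.2% and 79.8% in the WT sets. Eif2a, whose protein can bring initiator tRNA without eIF2, stayed at 17.7 to 29.2 CPM in 5 sets and reached 91.0 CPM in CD3e-/- set 1. Eif2s1 and Eif2d lay between 17.3 and 51.3 CPM in all 6 sets, with groups that overlapped.

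The subunit genes of eIF2B, which reloads eIF2 with GTP, did not move together. Eif2b4, the delta subunit, had 141 and 152 CPM in the CD8-depleted sets, 97.6 and 67.3 CPM in the CD3e-/- sets and 61.7 and 102 CPM in the WT sets. CD8-depleted cells were above both other groups without overlap, with a log2 fold change of 0.77 (SE 0.40, edgeR adjusted p = 0.522) against WT over 5 sets. In CD3e-/- against CD8-depleted cells Eif2b4 had a log2 fold change of −1.31 (SE 0.51, unadjusted p = 0.0155, edgeR adjusted p = 1.0) over 5 sets. Eif2b1, the regulatory alpha subunit, ran the other way: 7.59 and 9.87 CPM in CD8-depleted, 9.92 and 33.2 CPM in CD3e-/- and 36.7 and 16.6 CPM in WT sets. Its log2 fold change was −1.57 (SE 0.59, unadjusted p = 0.0114, edgeR adjusted p = 0.317) in CD8-depleted against WT cells and 1.74 (SE 0.67) in CD3e-/- against CD8-depleted cells over 5 sets. Few cells carry this gene: at equal depth it was read in 17.5% and 17.4% of CD8-depleted cells, 34.7% of cells in CD3e-/- set 2 and 30.5% and 14.5% of WT cells, so the last WT set was below both CD8-depleted sets in this measure. Eif2b2 had 31.8 and 34.4 CPM in CD8-depleted, 6.62 and 24.9 CPM in CD3e-/- and 23.2 and 51.6 CPM in WT sets, and Eif2b3 stood at 190 CPM in CD3e-/- set 1 against 15.5 to 36.8 CPM in the other 5.

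The 4 kinases that phosphorylate eIF2alpha under stress were low in all groups. Eif2ak1, the heme-regulated kinase, was the most abundant, with 20.8 and 24.1 CPM in CD8-depleted, 48 and 32.6 CPM in CD3e-/- and 48.3 and 28.5 CPM in WT sets. CD8-depleted cells lay below the other groups without overlap. Eif2ak4, the sensor of uncharged tRNA, had 11.3 and 5.48 CPM in CD8-depleted, 52.9 and 4.32 CPM in CD3e-/- and 6.54 and 2.68 CPM in WT sets. The kinases for double-stranded RNA (Eif2ak2) and for stress of the endoplasmic reticulum (Eif2ak3) lay at 7.74 to 35.4 CPM and 2.62 to 18.2 CPM, and 0 of the 4 passed the test in any comparison.

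The eIF3 genes, which encode the scaffold of the small subunit, summed to 2000 and 1706 CPM in the CD8-depleted sets, 901 and 1934 CPM in the CD3e-/- sets and 1640 and 1594 CPM in the WT sets. Outside CD3e-/- set 1 the range of this sum was narrow, and both CD8-depleted sets were above both WT sets. Eif3k had 248 and 256 CPM in CD8-depleted, 122 and 167 CPM in CD3e-/- and 130 and 154 CPM in WT sets, and Eif3c had 244 and 210, 109 and 234, and 199 and 181 CPM in the same order of sets. Eif3a, the largest subunit, had 202 and 164 CPM in CD8-depleted, 238 and 222 CPM in CD3e-/- and 141 and 85.4 CPM in WT sets. It was the 1 eIF3 gene at 20 CPM or more with all 4 other sets above both WT sets, and its log2 fold change in CD3e-/- against WT cells was 0.80 (SE 0.43, edgeR adjusted p = 1.0) over 5 sets and 0.47 (SE 0.73) over 6. Eif3h (202 and 146, 43 and 229, 169 and 169 CPM) and Eif3i (216 and 178, 24.8 and 190, 137 and 191 CPM) overlapped between CD8-depleted and WT sets and were low in CD3e-/- set 1. Per kilobase of exon, the median of 13 eIF3 genes (Eif3j2 left out) was 55.4 and 48 CPM per kilobase in CD8-depleted, 15.3 and 51.4 in CD3e-/- and 34.1 and 46.7 in WT sets. Of the 14 genes, 9 had a log2 fold change above 0 in CD8-depleted against WT cells over 5 sets (median 0.14), and 7 of 14 in CD3e-/- against WT cells (median −0.0074).

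The scaffold genes of eIF4F differed in direction. Eif4g1, the main eIF4G, had 314 and 275 CPM in the CD8-depleted sets, 392 and 231 CPM in the CD3e-/- sets and 147 and 200 CPM in the WT sets. All 4 sets of the other groups were above both WT sets, although a single cell gave 61.6% of this gene's counts in CD3e-/- set 1. Eif4g2, whose protein lacks the eIF4E-binding part and serves cap-independent starts, had 234 and 285 CPM in CD8-depleted, 298 and 516 CPM in CD3e-/- and 694 and 288 CPM in WT sets. The lower WT set lay just above both CD8-depleted sets and just below the lower CD3e-/- set. The helicase genes showed the same unevenness: Eif4a2 had 80.3 and 81.7 CPM in CD8-depleted, 382 and 133 CPM in CD3e-/- and 261 and 83.3 CPM in WT sets, whereas Eif4a1 stayed at 66.6 to 86.1 CPM in all 6. The log2 fold change of Eif4a2 in CD8-depleted against WT cells was −1.02 (SE 0.40, edgeR adjusted p = 0.361) over 5 sets, and it was −0.23 without WT set 1. Eif4a2 gave 52.6% and 48.7% of the counts of both helicase genes in CD8-depleted, 84% and 62.6% in CD3e-/- and 79.7% and 53.7% in WT sets.

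The cap-binding gene Eif4e had 115 and 64 CPM in CD8-depleted, 57.9 and 142 CPM in CD3e-/- and 205 and 107 CPM in WT sets, with overlap. Its relatives were lower: Eif4e2, a cap-binding repressor, had 33.9 and 30 CPM in CD8-depleted, 67.8 and 27.3 CPM in CD3e-/- and 24.7 and 29 CPM in WT sets. Eif4e3 had 26.3 and 28.3, 18.2 and 53.2, and 36.4 and 41.5 CPM in the same sets. Eif4e gave 65.6% and 52.3% of the counts of the 3 genes in CD8-depleted, 40.2% and 63.8% in CD3e-/- and 77% and 60.3% in WT sets, so neither group stood clear of WT.

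The 3 measured genes that keep eIF4E out of eIF4F had lower values in CD8-depleted than in WT sets, and Eif4ebp3 had 0 counts. Lying below both WT sets in this way held for 19.8% of all genes tested. Eif4ebp1 (chromosome 8, mm10), the main eIF4E-binding protein of muscle and a direct mTOR target, had 128 and 131 CPM in the CD8-depleted sets, 126 and 165 CPM in the CD3e-/- sets and 238 and 219 CPM in the WT sets. No set of either group reached a WT set. Its log2 fold change in CD8-depleted against WT cells was −0.84 (SE 0.36, unadjusted p = 0.0262, edgeR adjusted p = 0.409) over 5 sets and −0.81 (SE 0.76) over 6. Against WT, CD3e-/- cells gave −0.67 (SE 0.45, edgeR adjusted p = 1.0) over 5 sets and −1.16 (SE 0.77, adjusted p = 0.761) over 6. In single cells the median level of Eif4ebp1 was 90.4 and 99.1 CPM in CD8-depleted, 58.6 and 136 CPM in CD3e-/- and 206 and 207 CPM in WT sets. At equal depth it was read in 89.5% and 84.8% of CD8-depleted cells, 93.3% of cells in CD3e-/- set 2 and 93.2% and 93.5% of WT cells, so the shares of cells differed less than the levels. Eif4ebp2 had 23.8 and 34 CPM in CD8-depleted, 21.5 and 34.5 CPM in CD3e-/- and 44.6 and 46.8 CPM in WT sets, again with no overlap with WT. Eif4enif1, which carries eIF4E into the nucleus, had 28.1 and 26.3, 29.8 and 42.6, and 63.2 and 29.5 CPM, with only the CD8-depleted sets below both WT sets. The sum of the role was 180 and 191 CPM in CD8-depleted, 177 and 242 CPM in CD3e-/- and 346 and 295 CPM in WT sets. All 3 tested genes were below 0 in CD8-depleted against WT cells under all 25 settings tried, although 0 passed. In CD3e-/- against WT cells they were below 0 under 23 of 24 settings. The exception was cells weighted alike over 5 sets, where 2 of 3 were above 0. All settings refit the same sets, so their number adds no independent support.

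At subunit joining, Eif5b stood clear of WT in CPM in both groups. Eif5b (chromosome 1, mm10), the GTPase that joins the ribosomal subunits, had 285 and 283 CPM in the CD8-depleted sets, 265 and 331 CPM in the CD3e-/- sets and 130 and 149 CPM in the WT sets. The lowest of the 4 other sets was above the higher WT set. Its log2 fold change in CD8-depleted against WT cells was 0.99 (SE 0.36, unadjusted p = 0.0098, edgeR adjusted p = 0.301) over 5 sets and 1.01 (SE 0.80, adjusted p = 1.0) over 6. CD3e-/- against WT cells gave 1.02 (SE 0.42, unadjusted p = 0.0216, edgeR adjusted p = 1.0) over 5 sets and 0.55 (SE 0.80) over 6. With only set 1 in the CD3e-/- group it turned to −0.30. Fold changes in that fit used a TMM factor of 1.97 for set 1, which plain CPM does not. The median cell had 264 and 273 CPM of Eif5b in CD8-depleted, 329 and 375 CPM in CD3e-/- and 106 and 159 CPM in WT sets, and no single cell gave more than 8.57% of its counts in the 5 sets. Eif5a, the hypusine-carrying factor that frees stalled ribosomes, had 173 and 200 CPM in CD8-depleted, 31.4 and 273 CPM in CD3e-/- and 392 and 255 CPM in WT sets, so CD8-depleted cells lay below WT. Its paralog Eif5a2 was nearly silent at 0.262 and 2.74 CPM in CD8-depleted, 11.6 and 0.457 CPM in CD3e-/- and 0.507 and 0.146 CPM in WT sets. Eif5a2 gave 0.151% and 1.35% of the counts of both eIF5A genes in CD8-depleted sets, 26.9% (7 of 26 counts) and 0.167% in CD3e-/- sets and 0.129% and 0.0572% in WT sets. Eif6, which keeps the subunits apart, lay at 18.7 to 36.1 CPM with overlap.

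**Figure D3:**
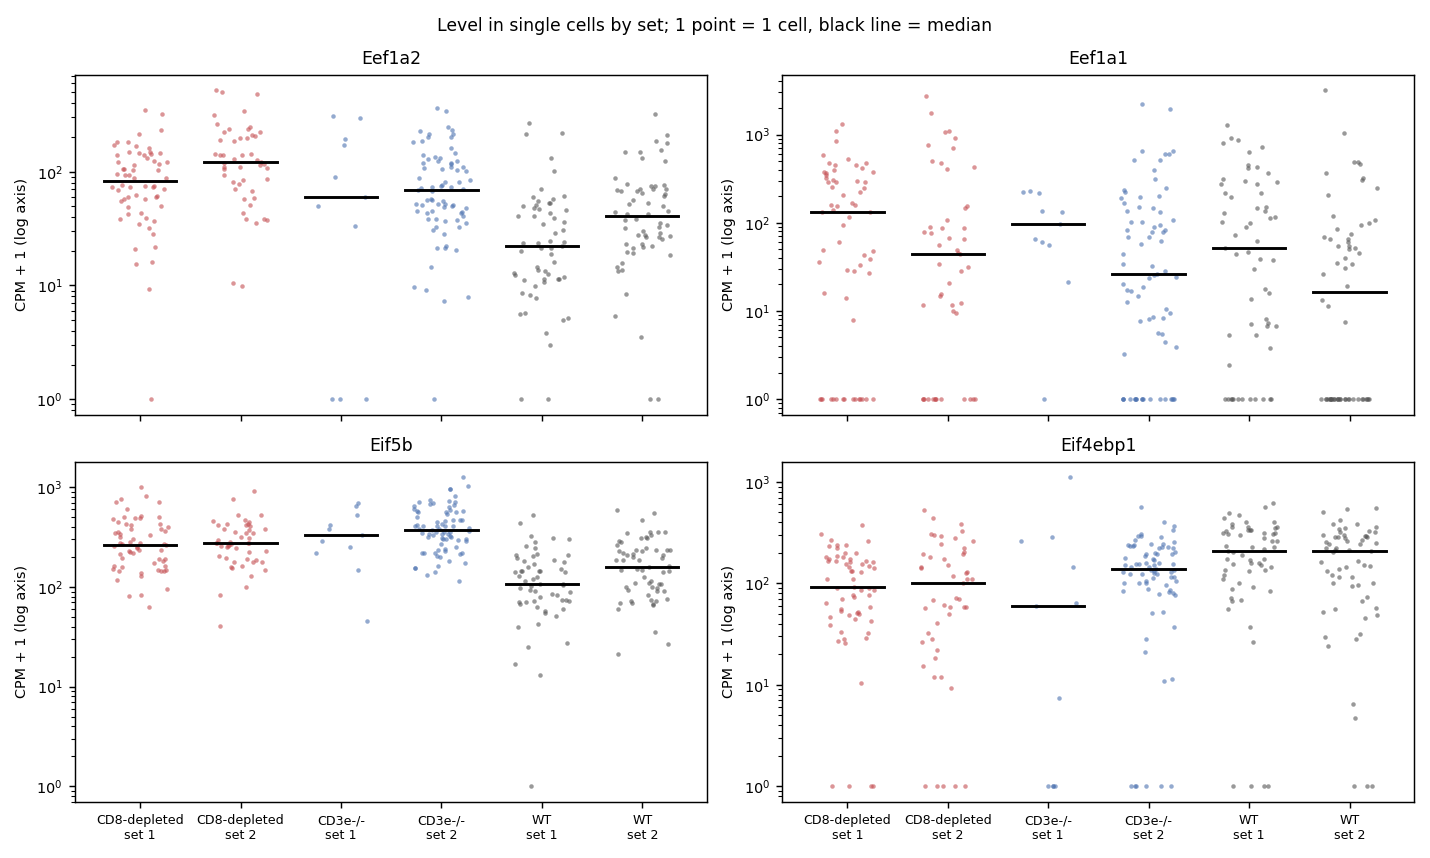
Level of Eef1a2, Eef1a1, Eif5b and Eif4ebp1 in each of the 320 cells, as CPM + 1 on a log axis, by set; each point is a cell and each black line the median of the set. Cells at 1 had no read. The median lines of Eef1a2 and Eif5b are higher, and those of Eif4ebp1 lower, in CD8-depleted and CD3e-/- sets than in both WT sets.

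The elongation genes of the eEF1 complex summed to 1103 and 1077 CPM in the CD8-depleted sets, 460 and 747 CPM in the CD3e-/- sets and 882 and 803 CPM in the WT sets, so CD8-depleted cells lay above and CD3e-/- cells below WT. Eef1g, a structural subunit of the exchange complex, had 436 and 331 CPM in CD8-depleted, 61.2 and 266 CPM in CD3e-/- and 343 and 337 CPM in WT sets. Eef1b2, a nucleotide exchange subunit, had 170 and 185, 79.4 and 140, and 218 and 173 CPM, and in CD3e-/- against WT cells its log2 fold change was −0.67 (SE 0.45, edgeR adjusted p = 1.0) over 5 sets and −1.26 (SE 0.80, adjusted p = 0.747) over 6. The other exchange subunit, Eef1d, had 191 and 198 CPM in CD8-depleted, 119 and 125 CPM in CD3e-/- and 96.6 and 136 CPM in WT sets, higher in both CD8-depleted sets than in any other. Eef2, which moves the ribosome, had 470 and 335 CPM in CD8-depleted, 498 and 293 CPM in CD3e-/- and 404 and 382 CPM in WT sets, with overlap.

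Eef1a2 had the smallest p of all members in CD8-depleted against WT cells. This gene, on chromosome 2 from 181147653 to 181157014 of mm10, had 87.9 and 137 CPM in the CD8-depleted sets, 82.7 and 61.4 CPM in the CD3e-/- sets and 27.6 and 41.1 CPM in the WT sets. Both CD8-depleted sets exceeded both WT sets, and so did both CD3e-/- sets. Its mean was 113 ± 35 CPM in CD8-depleted, 72 ± 15.1 CPM in CD3e-/- and 34.3 ± 9.57 CPM in WT cells (SD, n = 2 sets each). The log2 fold change in CD8-depleted against WT cells was 1.65 (SE 0.43, unadjusted p = 5.3e-04, edgeR adjusted p = 0.0964) over 5 sets and 1.67 (SE 0.69, unadjusted p = 0.0354, edgeR adjusted p = 1.0) over 6 sets. DESeq2 over 5 sets gave 1.70 (SE 0.45, adjusted p = 0.0224), and over all 25 settings the change ran between 1.26 and 2.20 with adjusted p between 0.0224 and 1.0. The change of Eef1a2 in CD3e-/- against WT cells was 0.59 (SE 0.50, edgeR adjusted p = 1.0) over 5 sets and 0.39 (SE 0.68) over 6, and it turned to −0.10 without WT set 1. Between CD3e-/- and CD8-depleted cells it was −1.06 (SE 0.54, unadjusted p = 0.0571, edgeR adjusted p = 1.0) over 5 sets.

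The higher level of Eef1a2 was spread over the cells. Before thinning, 98.4% and 100% of CD8-depleted cells, 72.7% and 98.7% of CD3e-/- cells and 96.6% and 96.8% of WT cells had a read, but depth differed between sets. Thinned to 50000 nuclear counts, Eef1a2 was read in 98.2% and 97.8% of CD8-depleted cells, in 84% of the cells of CD3e-/- set 2 and in 61% and 80.6% of WT cells. The median cell had 81.4 and 120 CPM in CD8-depleted, 58.6 and 68.1 CPM in CD3e-/- and 21.3 and 39.4 CPM in WT sets. In the 5 sets no single cell gave more than 9.04% of the counts of Eef1a2.

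Eef1a1, the isoform gene of most tissues (chromosome 9, 78478449 to 78489151 of mm10), was less evenly spread over the cells. It had 208 and 216 CPM in the CD8-depleted sets, 114 and 140 CPM in the CD3e-/- sets and 160 and 113 CPM in the WT sets. Both CD8-depleted sets lay above both WT sets, as for Eef1a2, and the CD3e-/- sets lay within the WT range. At equal depth it was read in 73.7% and 67.4% of CD8-depleted cells, 64% of cells in CD3e-/- set 2 and 66.1% and 48.4% of WT cells. A single cell gave 44.5% of its counts in WT set 2, 26.1% in CD8-depleted set 2 and 24.2% in CD3e-/- set 2. Eef1a1 has pseudogene copies in the mouse genome, and how reads that match several places were counted is not given in the sources used here, so its level is uncertain.

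Of the counts of both isoform genes, Eef1a2 gave 29.7% (95% Wilson interval 27.8% to 31.6%) and 38.9% (36.7% to 41.1%) in the CD8-depleted sets. It gave 42% (33.5% to 51.0%) and 30.5% (29.3% to 31.8%) in the CD3e-/- sets and 14.7% (13.7% to 15.8%) and 26.6% (25.1% to 28.2%) in the WT sets. All 4 CD8-depleted and CD3e-/- sets lay above both WT sets in this share, and the intervals cover counting error only. A single cell gave a large part of the Eef1a1 counts in WT set 2, as given above. The share without such cells was not computed, so the separation from WT may rest on that cell. With 2 sets a side, an exact two-sided permutation test cannot go below p = 0.333. Per kilobase of exon the share was 33.6% and 43.2% in CD8-depleted, 46.4% and 34.5% in CD3e-/- and 17.1% and 30.3% in WT sets. Averaged over cells that had a count, it was 50.8% and 68.1%, 41.7% and 62.4%, and 44.3% and 65.1% in the same sets, and the groups then overlapped. At equal depth, both genes were read in 71.9% and 65.2% of CD8-depleted cells, in 53.3% of cells of CD3e-/- set 2 and in 42.4% and 38.7% of WT cells.

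**Figure D4:**
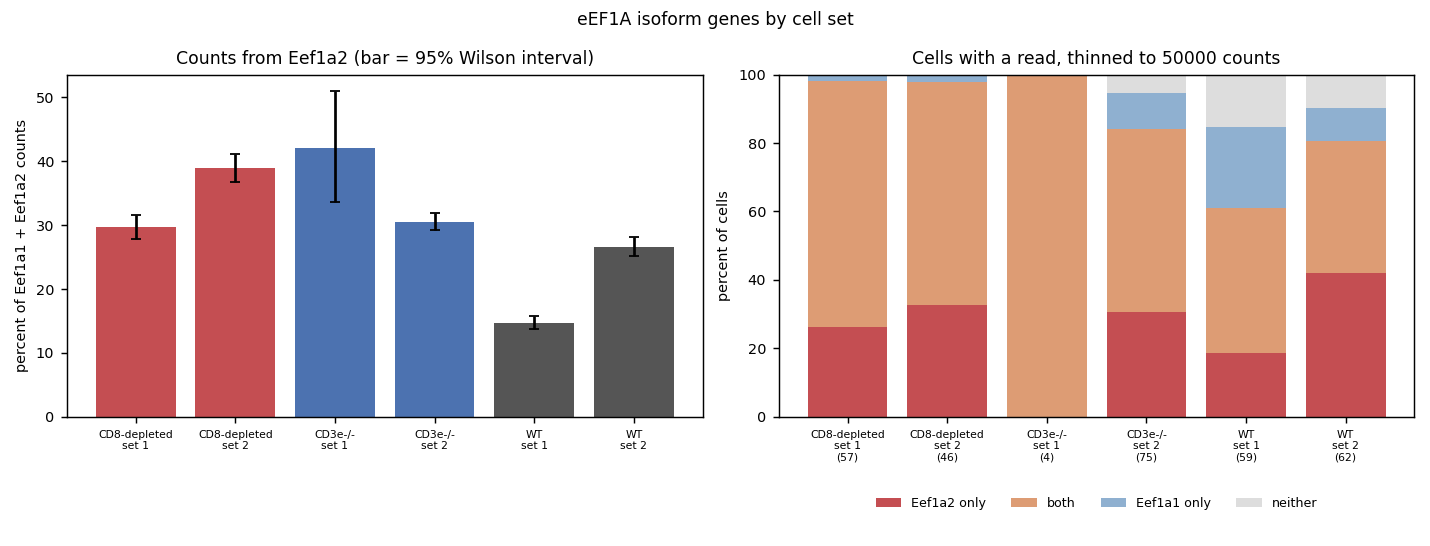
Left, share of the summed counts of Eef1a1 and Eef1a2 that came from Eef1a2 in each set, in percent, with the 95% Wilson interval. Right, share of cells with a read of Eef1a2 only, both genes, Eef1a1 only or neither after thinning to 50000 nuclear counts, with the number of cells in parentheses. The 4 CD8-depleted and CD3e-/- bars on the left (29.7% to 42%) stand above both WT bars (14.7% and 26.6%).

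The stretches before the starts of these isoform genes are shown because the share of Eef1a2 in their counts is the pattern followed here. They are the 250 bases before the RefSeq start (GRCm38.p6, the assembly of mm10), both on the minus strand, 5′ to 3′, with GC boxes (GGGCGG on either strand, CCGCCC as read here) in capitals.
Eef1a2, chr2:181157016-181157265: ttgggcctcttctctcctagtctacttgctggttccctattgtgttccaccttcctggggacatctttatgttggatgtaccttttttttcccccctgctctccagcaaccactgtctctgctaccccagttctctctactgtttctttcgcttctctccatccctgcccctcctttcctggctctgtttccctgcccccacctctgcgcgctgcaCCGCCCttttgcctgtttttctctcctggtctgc
Eef1a1, chr9:78481725-78481974: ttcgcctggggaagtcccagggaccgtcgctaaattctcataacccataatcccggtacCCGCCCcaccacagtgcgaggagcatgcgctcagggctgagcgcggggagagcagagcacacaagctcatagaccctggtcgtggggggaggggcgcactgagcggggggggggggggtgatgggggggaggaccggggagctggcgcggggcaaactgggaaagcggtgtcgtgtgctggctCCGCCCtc
The Eef1a2 stretch is 54% G or C and holds 1 GC box, and the Eef1a1 stretch is 68% G or C and holds 2. The count table's own gene model of Eef1a1 starts farther upstream than RefSeq's, so the first base may differ. A GC box stands in 32.7% of 32851 RefSeq promoter stretches of this length and in 66.7% of 69 stretches of the 54 members that matched by symbol. The E-box CANNTG, which reads the same on both strands in its fixed letters, stands in 66.2% of all stretches, in 47.8% of those of members and in neither of the stretches shown. A match is a description of letters, not of a bound site.

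The genes that modify elongation factors were low or uneven. Eef2kmt, which encodes a methyltransferase of eEF2, had 42.5 and 49.7 CPM in CD8-depleted, 19.8 and 29.7 CPM in CD3e-/- and 15.7 and 31.6 CPM in WT sets, with both CD8-depleted sets above all others. Its log2 fold change in CD8-depleted against WT cells was 0.88 (SE 0.50, edgeR adjusted p = 0.578) over 5 sets. Eef2k, the kinase that stops eEF2, stayed at 14.8 to 22.7 CPM in all 6 sets. Eef1aknmt, which encodes a methyltransferase of eEF1A, had 4.84 and 6.03 CPM in CD8-depleted, 26.5 and 4.2 CPM in CD3e-/- and 1.35 and 5.50 CPM in WT sets. Eef1akmt1 was the most abundant of the role, at 91.8 and 92.3 CPM in CD8-depleted, 13.2 and 107 CPM in CD3e-/- and 93.9 and 107 CPM in WT sets.

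Lists of neighbouring genes of the pathway were counted in the same fits over 5 sets, where 0 genes of any list passed in any comparison. The mTOR list held 14 genes: parts of its complexes (such as Mtor and Rptor), inhibitors (such as the TSC genes) and downstream kinases (such as Rps6kb1). Of these, 11 were above 0 in CD8-depleted against WT cells (median 0.34) and 4 in CD3e-/- against WT cells (median −0.16). Because the list mixes activators and inhibitors, these counts give no direction of mTOR activity. Of 14 partners of the cap and the poly(A) tail, 2 were above 0 (median −0.36) and 4 were above 0 (median −0.12) in the same comparisons. Of 10 genes of the integrated stress response, which eIF2alpha kinases start, 5 and 6 were above 0 (medians −0.02 and 0.21). All 4 tested genes of termination and recycling were below 0 in both comparisons (medians −0.65 and −0.38). Of 8 enzymes that make the diphthamide of eEF2 or the hypusine of eIF5A, 2 and 1 were above 0 (medians −0.35 and −0.36). The medians of all genes tested were −0.02 and −0.06.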

How the data were processed

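Single cardiomyocytes were profiled by Smart-seq2. The deposited values are raw read counts per gene and cell, with exon lengths; per the submitters' processing notes, the tools were fastp 0.21.0, STAR 2.7.5c and featureCounts on mm10, while the study's methods name another aligner and build. Smart-seq2 reads carry no strand, so antisense partners cannot be told apart, and near-identical genes (Eef1a1 copies, Eif1a and Eif1ax, Eif3j1 and Eif3j2) may share reads. Of 375 cells, 53 with fewer than 3000 detected genes and 2 with identical counts were left out. The 13 mitochondrially encoded genes were left out, and counts were summed per numbered set (6 sets). CPM uses plain nuclear totals, and fold changes use TMM factors (1.94 for CD3e-/- set 1). Groups were compared in 1 fit with edgeR 4.0.16 (filterByExpr, quasi-likelihood F test, Benjamini-Hochberg over all genes tested, threshold 0.05), also over 5 sets. The fits were tested on simulated data. Alternatives used DESeq2 1.42.0, limma 3.58.1, other cell filters, 303 cells thinned to 50000 counts, other scalings, a replicate block and each set left out. Python 3.11.15 and R 4.3.3 were used. The members, their roles and the gene lists were chosen with earlier results of these data known. Values are given for the 12 most abundant members, the 4 smallest p-values per direction and comparison over 6 sets, the paralog sets and members clear of WT by 2-fold; other genes named were chosen after their values were seen.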

Additional observations from a re-analysis of the deposited data

How the results depend on the processing

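The count of called members stayed at 0 in 67 of 70 alternative fits. It became 1 (Eef1a2, CD8-depleted against WT) with DESeq2 over 5 sets, and leaving out single sets gave 0 to 31 called in CD3e-/- against WT and 0 to 26 in CD3e-/- against CD8-depleted, each time from leaving only CD3e-/- set 1 in the group. With single sets left out, the members' median log2 fold change ran between −1.53 and −0.18 in CD3e-/- against WT, between −1.53 and −0.14 in CD3e-/- against CD8-depleted and between −0.15 and 0.03 in CD8-depleted against WT. In CD3e-/- against WT it moved to −0.047 with library sizes in place of TMM, and over 5 sets to −0.18 with DESeq2, −0.17 with thinned cells, 0.013 with library sizes, 0.19 with cells weighted alike and −0.16 without each gene's highest cell. In CD3e-/- against CD8-depleted it moved to 0.078 with library sizes and −0.076 with cells weighted alike, and over 5 sets to −0.19 with DESeq2, −0.14 with thinned cells, 0.052 with library sizes, 0.37 with cells weighted alike and −0.18 without each gene's highest cell. Both last-named settings over 5 sets were chosen after seeing the data.

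Set numbers are shared between groups, and the labels do not say whether same-numbered sets belong together. Same-numbered sets deviated from their group means with correlations of −0.024, −0.0060 and −0.17 across genes. Each group gives a single difference between its sets, so these values cannot decide whether the numbers pair the sets. With the set number as a replicate block 0 members passed in each comparison, and over 5 sets the median was −0.14 in CD3e-/- against WT and −0.15 in CD3e-/- against CD8-depleted.

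Of the fold changes named, 5 turned sign when single sets were left out. In CD3e-/- against WT, Eif5b ran between −0.30 and 1.02 and Eif3a between −0.091 and 0.80, both lowest without CD3e-/- set 2, and Eef1a2 between −0.10 and 0.89, lowest without WT set 1. In CD3e-/- against CD8-depleted, Eif2b1 ran between −1.0 and 1.74 and Eif1ax between −0.59 and 1.13, both lowest without CD3e-/- set 2. For Eif5b, Eif3a, Eif2b1 and Eif1ax, the plain CPM of CD3e-/- set 1 lay above both sets of the group compared. The fit without CD3e-/- set 2 used a TMM factor of 1.97 for set 1, which plain CPM does not. The cause of the turns was not tested. The share of Eef1a counts from Eef1a2 was 34.3% in CD8-depleted, 36.3% in CD3e-/- and 20.6% in WT on average; averaged over cells it was 59.5%, 52% and 54.7%, and with cells of 5000 or more detected genes it was 25.1% in CD8-depleted, 32.8% in CD3e-/- and 16.9% in WT. The Eif4a2 share per kilobase was 45.5% in CD8-depleted. The Eif5a2 share was 3.89% in CD8-depleted and 40.02% in CD3e-/- with such cells and 0.916% in WT averaged over cells. The Eif4e share in CD8-depleted was 36.8% with such cells, 48.6% per kilobase and 41.4% averaged over cells, and 56.2% per kilobase in WT. The Eif2s3y share in WT was 86.6% with such cells, 79.1% per kilobase and 72.5% averaged over cells. With single sets left out, each share takes the value of the set that remains, as printed per set.

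Depth limits what 2 sets a group can show: CD3e-/- set 1 holds 604652 nuclear counts from 11 cells, and genes under 20 CPM have few counts there.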
